A study of Arabidopsis thaliana with 12 samples.

Results

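Peroxide handling in the plastid was followed through 3 Arabidopsis thaliana genes: NTRC (AT2G41680), SRX (AT1G31170) and AT3G52960, which encodes peroxiredoxin IIE. They were chosen by name, as array probes annotated to exactly 1 of these genes. All 3 genes had such a probe, 1 each, so no choice between probes was needed. They are 3 of 689 genes with a probe of their own, on an array table of 3439 probes. The 12 samples were total RNA of wild-type plants of the Columbia 0 ecotype. In 6 samples the plants had been grown at normal CO2 and were labelled 0 d, and in the other 6 they had finally been kept for 6 d in air with 1% (v/v) CO2. The labels name neither the organ nor the age at harvest, so CO2 and plant age could have changed at the same time. In whole-tissue RNA fewer cells of a type and less RNA per cell cannot be told apart. The comparison asks which transcripts differ between plants at high and at normal CO2.

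Peroxiredoxins are thiol peroxidases that reduce hydrogen peroxide and organic peroxides and must then be reduced again themselves. NTRC is a plastid enzyme that joins a thioredoxin reductase and a thioredoxin in 1 protein, draws electrons from NADPH and is best known as the reductant of the plastid 2-Cys peroxiredoxins. SRX, sulfiredoxin, repairs peroxiredoxins whose active-site cysteine has been over-oxidised by peroxide. Peroxiredoxin IIE belongs to another class in the stroma, for which glutaredoxin and glutathione are known as reductants in vitro. The ratios given below therefore set peroxiredoxin IIE against genes that are best known for serving the 2-Cys class.

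Deposited intensities ran from 0 to just under 100 on a linear scale of unstated origin. Sample medians lay between 0.16 and 0.39, and the values were therefore quantile normalized. Within each group the pairs 1-2, 3-4 and 5-6 looked like repeats, because all 12 samples correlated best with that partner (r across probes from 0.919 to 0.981). The labels do not say whether samples are from separate plants. All p-values thus describe variation among these samples, part or all of which may be technical. The samples labelled high CO2 5 and 6 lay closer to normal-CO2 samples 1 to 4 (r from 0.901 to 0.917) than to high-CO2 samples 1 to 4 (0.837 to 0.866). Normal-CO2 samples 5 and 6 also stood apart, with r from 0.796 to 0.803 to normal-CO2 samples 1 to 4 and from 0.726 to 0.781 to high-CO2 samples 1 to 4. Results that rest on these samples are given with and without samples 5 and 6 of both groups.

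In the limma fit over the 12 samples, NTRC and SRX fell at high CO2 and peroxiredoxin IIE did not pass the test. NTRC was at 0.656 times (95% interval 0.523 to 0.823) and SRX at 0.43 times (0.252 to 0.734) the normal-CO2 level, while peroxiredoxin IIE was at 1.47 times (1.07 to 2.01). Of all 3349 tested probes 12.5% passed, 5.52% as higher and 6.96% as lower at high CO2. The 3 genes were picked with earlier results of these data known, so their own count is a description. Over the means of the 3 sample pairs none of the 3 genes passed, nor did any of the 3349 probes in limma (0%), of which 408 had an unadjusted p under 0.05.

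NTRC fell over the 12 samples after quantile normalization and after median scaling (log2 difference -0.69, limma adjusted p = 0.0322), and did not pass in the values as deposited (-0.10, adjusted p = 0.824). Its quantile-normalized intensity had a lowest value of 0.265, a median of 0.334 and a highest of 0.403 at normal CO2. At high CO2 the lowest was 0.197, the median 0.219 and the highest 0.241. Every high-CO2 sample lay below every normal-CO2 sample, which held in this direction for 4.75% of tested probes. The means were 0.337 ± 0.0499 and 0.219 ± 0.0194 (SD, n = 6 each), so the spread among high-CO2 samples was the smaller. The limma log2 difference was -0.61 (SE 0.15, adjusted p = 0.023). On pair means the adjusted p was 0.416 for the same difference (unadjusted p = 0.0579).

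As deposited, where 11.6% of tested probes passed, NTRC had nearly the same mean in both groups, 0.272 ± 0.0371 at normal and 0.269 ± 0.0969 at high CO2 (SD, n = 6 each). The high-CO2 samples fell into 2 sets. Samples 1 to 4 lay between 0.28 and 0.381, and samples 5 and 6 at 0.152 and 0.149. Those 2 samples had sample medians of 0.174 and 0.175 against 0.34 to 0.39 in high-CO2 samples 1 to 4, while their summed intensities, 3008 and 3004 against 3262 to 3365, lay closer together. Taken as a multiple of its own sample's median probe, NTRC stood at 1.09 to 1.77 at normal CO2 and at 0.821 to 0.976 at high CO2, with no overlap. These multiples restate the median-scaled values and are not a separate result. The share of all tested probes that were apart on this scale is not given here. Without samples 5 and 6 the sign depended on the scaling. The log2 difference was then -0.72 after quantile normalization (limma adjusted p = 0.00398), -0.80 after median scaling (adjusted p = 0.00196) and 0.36 as deposited (adjusted p = 0.0588), where the median of all tested probes was itself shifted by 0.93. The share of all tested probes passing in these 3 settings was 37.9%, 45.7% and 60%.

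SRX had the largest log2 difference of the 3 genes in this fit, and its groups overlapped. At normal CO2 its normalized intensity had a lowest value of 0.185, a median of 0.267 and a highest of 0.303. At high CO2 these were 0.0141, 0.132 and 0.209. High-CO2 sample 1, at 0.209, lay above normal-CO2 samples 4 and 6. The means were 0.251 ± 0.0485 and 0.117 ± 0.0681 (SD, n = 6 each), and the log2 difference was -1.22 (SE 0.36, limma adjusted p = 0.0428).

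The SRX call depended on single samples. High-CO2 sample 3 lay below the floor of 0.0398 that was set before taking log2, so its fold is understated by that floor, and without this sample the difference was -0.93 (adjusted p = 0.0638). The call held in only 3 of 12 fits that left out 1 sample. Samples 3 and 4, which resembled repeats across all probes, gave 0.0141 and 0.0661 at high CO2. As deposited the difference was -0.72 (limma adjusted p = 0.264). After median scaling, where 9.78% of tested probes passed, it was -1.30 (limma adjusted p = 0.071), so its sign over all samples was the same under each scaling. By pairs the sign varied as deposited, with a log2 difference of 0.24 for samples 1 and 2. It was -1.02 for samples 3 and 4 and -1.37 for samples 5 and 6. Leaving samples 5 and 6 out of each group gave -1.49 (limma adjusted p = 0.0496), where 19.8% of tested probes passed as lower. On pair means the limma adjusted p was 0.407 for the main difference.

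Peroxiredoxin IIE had the higher mean at high CO2, but it did not pass and its samples overlapped. Normalized intensities at normal CO2 had a lowest value of 0.378, a median of 0.524 and a highest of 0.821, and at high CO2 a lowest of 0.668, a median of 0.79 and a highest of 0.968. Normal-CO2 samples 1 and 2, at 0.821 and 0.742, lay within the high-CO2 range, and normal-CO2 samples 3 to 6 lay below all of it, with samples 5 and 6 the lowest at 0.378 and 0.42. The means were 0.568 ± 0.177 and 0.807 ± 0.0988 (SD, n = 6 each). The log2 difference was 0.55 (SE 0.21, limma adjusted p = 0.0967).

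In deposited values the peroxiredoxin IIE difference was larger, at 0.505 ± 0.133 against 0.853 ± 0.0868 (SD, n = 6 each), a log2 difference of 0.79 that passed (limma adjusted p = 0.0324). In that setting 9.66% of tested probes passed as higher and the median of all probes was shifted by 0.45. Among the tested probes it stood out less there, with 65.6% of them below its difference, against 80.1% after quantile normalization. High-CO2 sample 5, at 0.707, and normal-CO2 sample 1, at 0.712, were all that kept the groups from separating. After median scaling the log2 difference was 0.20 (adjusted p = 0.678). Without samples 5 and 6 it was 0.24 after quantile normalization (limma adjusted p = 0.334). It was then 0.78 as deposited (limma adjusted p = 0.013) and -0.37 after median scaling (limma adjusted p = 0.188), so the sign for this gene also depended on the scaling. In the deposited values without those samples, 53.2% of tested probes passed as higher. The median of all tested probes was shifted by 0.93 there, more than this gene was.

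**Figure D1:**
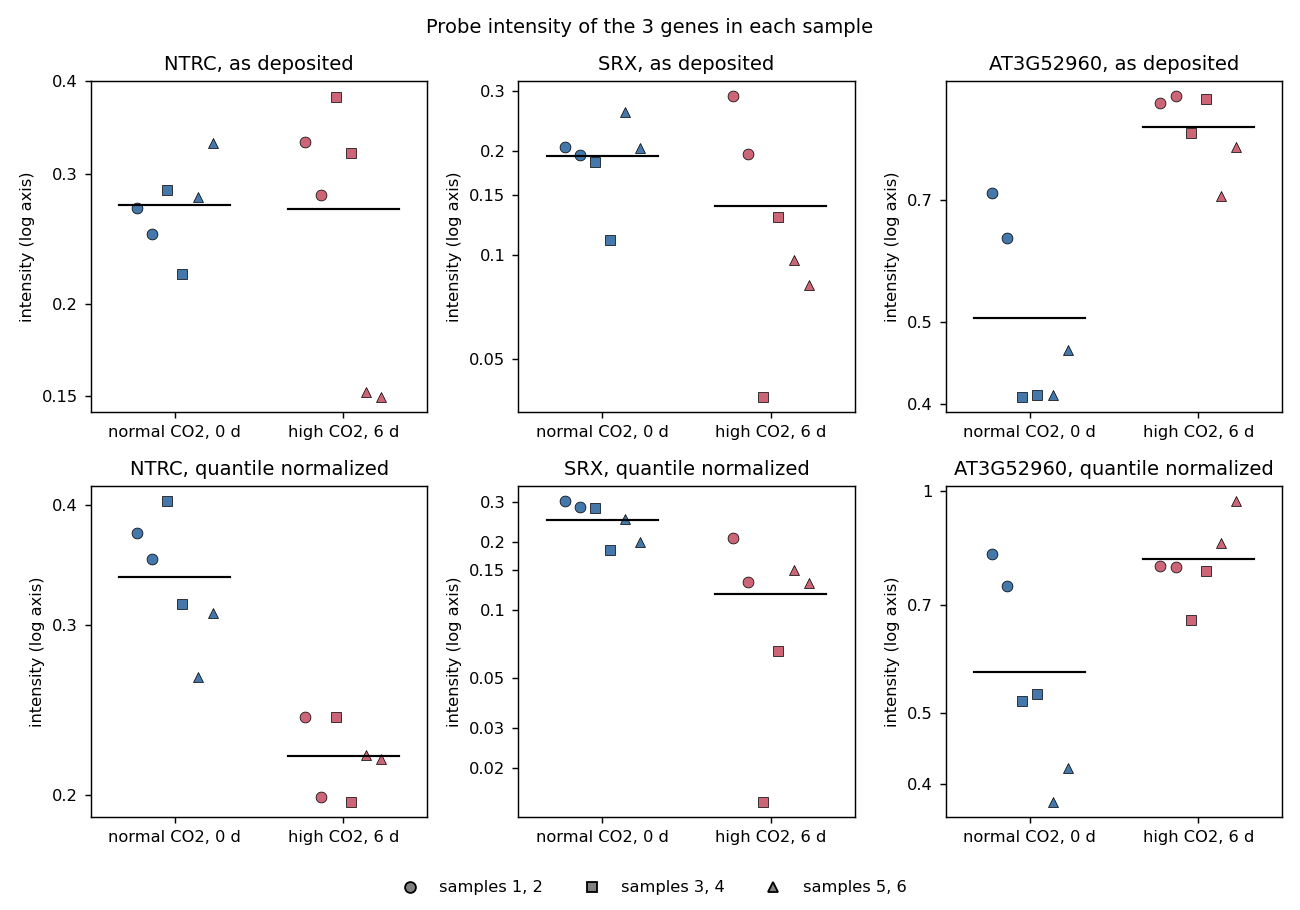
Probe intensity on log axes in each of the 12 samples, as deposited (upper row) and quantile normalized before the floor (lower row). Points are samples, with 1 symbol per pair of like samples, and lines are arithmetic means. NTRC separates the groups only after normalization, where it lies at 0.265 to 0.403 at normal and 0.197 to 0.241 at high CO2.

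The rank of a probe within its own sample does not change when all intensities of that sample are multiplied by a factor, although it depends on what the other probes do. It orders signals and not transcript amounts, since probes differ in how strongly they report. NTRC ranked 1156 to 1638 of 3439 at normal CO2 (median 1366, 1 being the brightest) and 1751 to 1989 at high CO2 (median 1866). It was thus lower in the order in all 6 high-CO2 samples, samples 5 and 6 included, at 1862 and 1870. Quantile normalization sets each value from the probe's rank in its sample. The ranks therefore restate the normalized values and are not a separate result.

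SRX ranked 1474 to 2055 at normal CO2 and 1922 to 3154 at high CO2. The lowest ranks, 2851 and 3154, were those of high-CO2 samples 4 and 3, and high-CO2 sample 1 ranked within the normal-CO2 range. Peroxiredoxin IIE ranked 571 to 1229 at normal CO2 and 483 to 707 at high CO2. Its normal-CO2 ranks went by pairs, with samples 1 and 2 at 571 and 635, samples 3 and 4 at 913 and 895, and samples 5 and 6 at 1229 and 1115. High-CO2 samples 5 and 6 held its brightest ranks, 551 and 483.

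**Figure D2:**
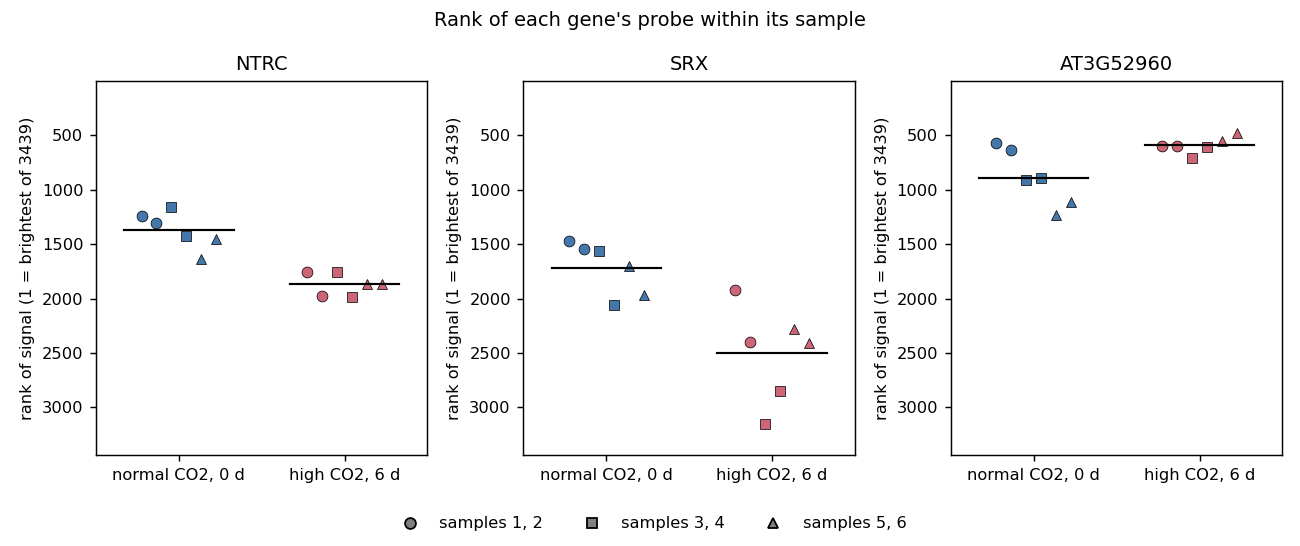
Rank of each gene's probe among the 3439 probes of its sample, with rank 1 at the top, for 6 normal-CO2 and 6 high-CO2 samples. Lines are mean ranks. The NTRC ranks do not overlap between groups (1156 to 1638 against 1751 to 1989), while those of SRX and AT3G52960 do. Ranks restate the quantile-normalized values.

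The ratio of 2 probes within a sample is likewise free of any factor that multiplies the whole sample. As deposited and after median scaling it is therefore the same number apart from the floor. Quantile normalization is not such a factor and changes the ratio. For peroxiredoxin IIE to NTRC it went from 2.89 to 3.96 in high-CO2 sample 4 and from 5.41 to 4.44 in high-CO2 sample 6. A ratio shows unequal change of 2 signals, not which of them changed or which transcript was the more abundant. After normalization the ratio of peroxiredoxin IIE to NTRC ran from 1.28 to 2.19 at normal CO2 (geometric mean 1.64) and from 2.77 to 4.44 at high CO2 (geometric mean 3.67). The groups did not overlap on this scale, and the ratio was 2.24-fold higher at high CO2. On the log2 scale the means were 0.71 ± 0.33 and 1.88 ± 0.24 (SD, n = 6 each), a difference of 1.16. No p is given for ratios between these genes, because they were picked with results known.

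As deposited, the ratio of peroxiredoxin IIE to NTRC ran from 1.40 to 2.64 at normal CO2 and from 2.21 to 5.41 at high CO2, with geometric means of 1.82 and 3.37. High-CO2 sample 3, at 2.21, lay below normal-CO2 samples 1 and 2, at 2.64 and 2.54, and the other 5 exceeded the whole normal-CO2 range. High-CO2 samples 5 and 6 had the highest ratios, 4.64 and 5.41. Without samples 5 and 6 of both groups the deposited ratio was 1.35-fold higher at high CO2, a log2 difference of 0.43 with SDs of 0.42 and 0.24 (n = 4 each) and overlapping groups. The normalized ratio was then 1.94-fold higher, and its groups stayed apart.

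The ratio of peroxiredoxin IIE to SRX was 3.41-fold higher at high CO2 after normalization, with no overlap between 1.5 to 2.86 at normal CO2 and 3.78 to 16.8 at high CO2. The geometric means were 2.21 and 7.55. The 2 highest values, 16.8 and 11.8, belonged to high-CO2 samples 3 and 4, in which SRX was dimmest, and the first of these was limited by the floor. As deposited the ratio was 2.84-fold higher, and high-CO2 sample 1, at 3.15, fell within the normal-CO2 range of 1.57 to 3.69. Without high-CO2 sample 3 the log2 difference of the normalized ratio was 1.54, against 1.77 with it.

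The ratio of NTRC to SRX scattered widely at high CO2. After normalization it was 1.05 to 1.70 at normal CO2 and 1.15 to 6.06 at high CO2. The groups overlapped, and 4 of the 6 high-CO2 values lay within the normal-CO2 range. Samples 3 and 4, at 6.06 and 2.97, were the other two. The log2 difference of 0.61 was smaller than the SD of 0.89 among the high-CO2 samples.

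**Figure D3:**
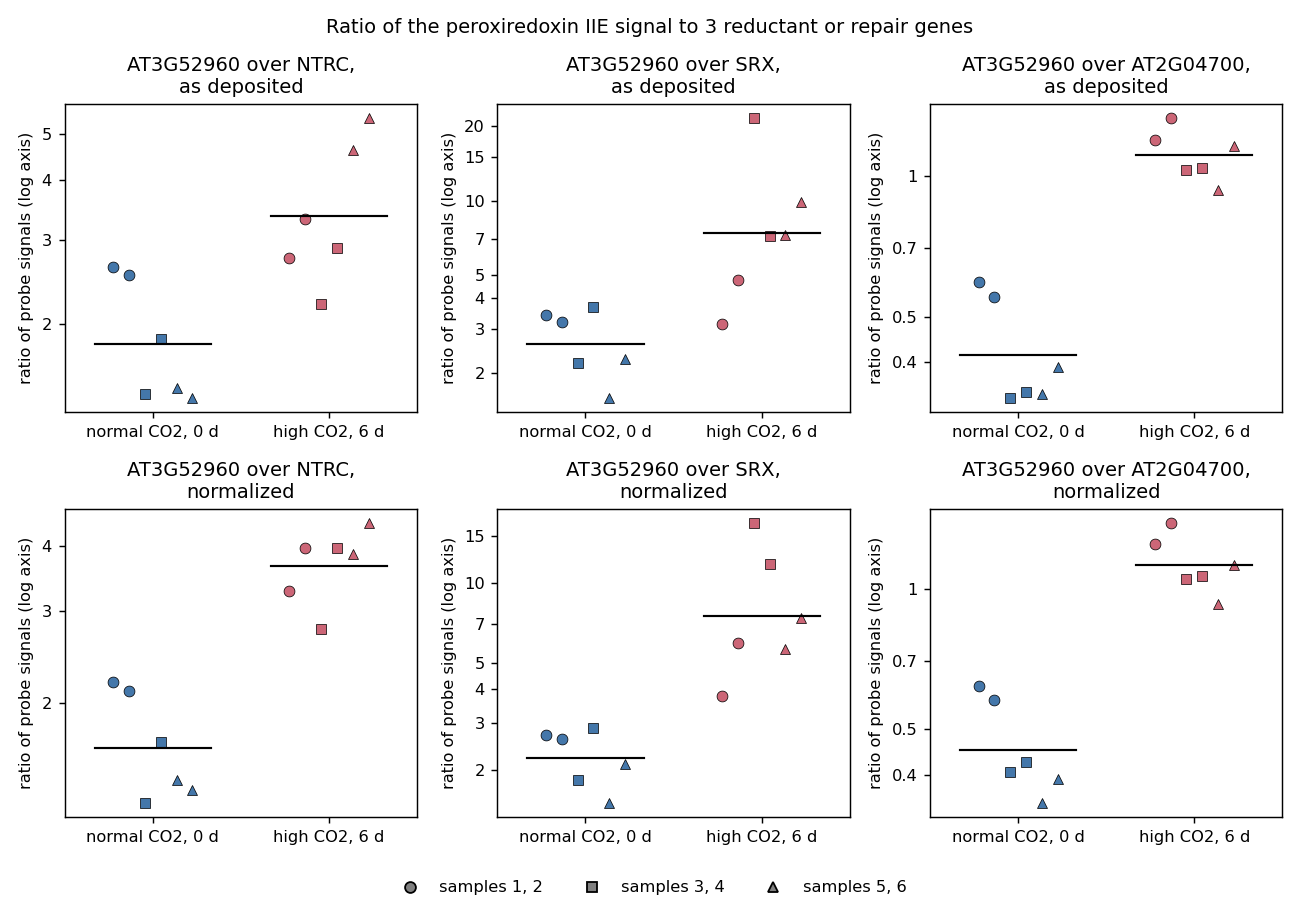
Ratio of the AT3G52960 (peroxiredoxin IIE) signal to the NTRC, SRX and AT2G04700 signals of the same sample, on log axes, as deposited (upper row) and normalized with the floor (lower row). Lines are geometric means. The normalized ratio to NTRC lies at 1.28 to 2.19 at normal and 2.77 to 4.44 at high CO2. The ratio to AT2G04700 is the 1 ratio of the 3 whose groups are also apart as deposited. It was added after the AT2G04700 values had been seen.

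Around these genes, 7 lists with 109 entries covered peroxiredoxins, thioredoxin reductases with sulfiredoxin, thioredoxins, glutaredoxins and glutathione, other peroxide and superoxide scavengers, plastid NADPH supply and enzymes regulated by thioredoxin or NTRC. Only 8 entries had a tested single-gene probe, 0 of which rose and 4 of which fell in limma over 12 samples, beside 5.52% and 6.96% of all tested probes. The 8 include the 3 chosen genes, which were picked with results known. The 4 that fell were NTRC, SRX, AT2G04700 and SBPASE, so NTRC and SRX are counted again here. As deposited 1 rose (peroxiredoxin IIE) and 1 fell (AT2G04700), beside 9.66% and 1.93% of tested probes. Without high-CO2 sample 4, 2 fell, beside 4.27%. Without samples 5 and 6 of both groups 5 fell, beside 19.8%. On the same samples 6 fell after median scaling, beside 28.8%, while as deposited 1 rose and 2 fell, beside 53.2% and 6.79%. With pairs as a random block or on pair means 0 fell, and no probe of the array passed. The median log2 difference of the 8 was -0.53, against -0.02 over all tested probes. Of 9 peroxiredoxins only IIE was measured, so the 2-Cys peroxiredoxins that NTRC and SRX serve were not seen here. No entry of the thioredoxin, glutaredoxin, scavenger and NADPH lists had a single-gene probe, and 10 entries of the first 3 lay on probes with several genes, which were not named.

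Beside NTRC and SRX the list of reductases held 1 more measured gene, AT2G04700. It was entered there as FTRB, the catalytic subunit of ferredoxin-thioredoxin reductase, from general knowledge, since the annotation used gives only its locus. This enzyme passes electrons from photosynthetic ferredoxin to plastid thioredoxins, and so serves the light-driven thioredoxin route while NTRC draws on NADPH. All 3 measured entries of that list fell in the fit over 12 samples, where 6.96% of all tested probes fell, and 1 of them, AT2G04700, also passed as deposited. With an estimated correlation within pairs none passed in limma (adjusted p = 0.315 for NTRC, 0.315 for SRX and 0.155 for AT2G04700).

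As deposited, the samples of AT2G04700 lay close together within each group. Its intensity had a lowest value of 1.14, a median of 1.19 and a highest of 1.21 at normal CO2. At high CO2 it had a lowest of 0.698, a median of 0.76 and a highest of 0.884. On this scale the groups were apart, and high-CO2 samples 5 and 6, at 0.757 and 0.699, lay among the other 4. The share of all tested probes whose groups were apart as deposited is not given here, so this separation is a description. After normalization the means were 1.22 ± 0.108 and 0.723 ± 0.137 (SD, n = 6 each), a log2 difference of -0.77 (SE 0.16, limma adjusted p = 0.0137). Here high-CO2 samples 5 and 6 were the highest of their group, at 0.916 and 0.856 against 0.569 to 0.727 in the other 4. They thus lay nearer to the normal-CO2 samples.

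AT2G04700 also passed as deposited (log2 difference -0.63, limma adjusted p = 0.0283), where 1.93% of tested probes passed as lower. After median scaling, where 7.27% did, it passed as well (-1.22, limma adjusted p = 0.0149). It passed in 12 of 12 fits with 1 sample left out, where its difference ran from -0.84 to -0.70. Over pair means it did not pass (adjusted p = 0.407, unadjusted p = 0.0334), nor with pairs as a random block. With samples 5 and 6 left out of each group the difference was -1.01 (limma adjusted p = 0.000499), where 19.8% of tested probes passed as lower. On the remaining pair means the limma adjusted p was 0.0717.

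The ratio of peroxiredoxin IIE to AT2G04700, added after these values had been seen, was apart between groups on both scales. Its separation is therefore a description. As deposited it ran from 0.335 to 0.594 at normal CO2 and from 0.933 to 1.33 at high CO2, 2.67-fold higher by geometric mean. After normalization it was 2.5-fold higher, with 0.347 to 0.62 against 0.928 to 1.39. Without samples 5 and 6 of both groups the log2 difference was 1.24 normalized and 1.37 as deposited.

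**Figure D4:**
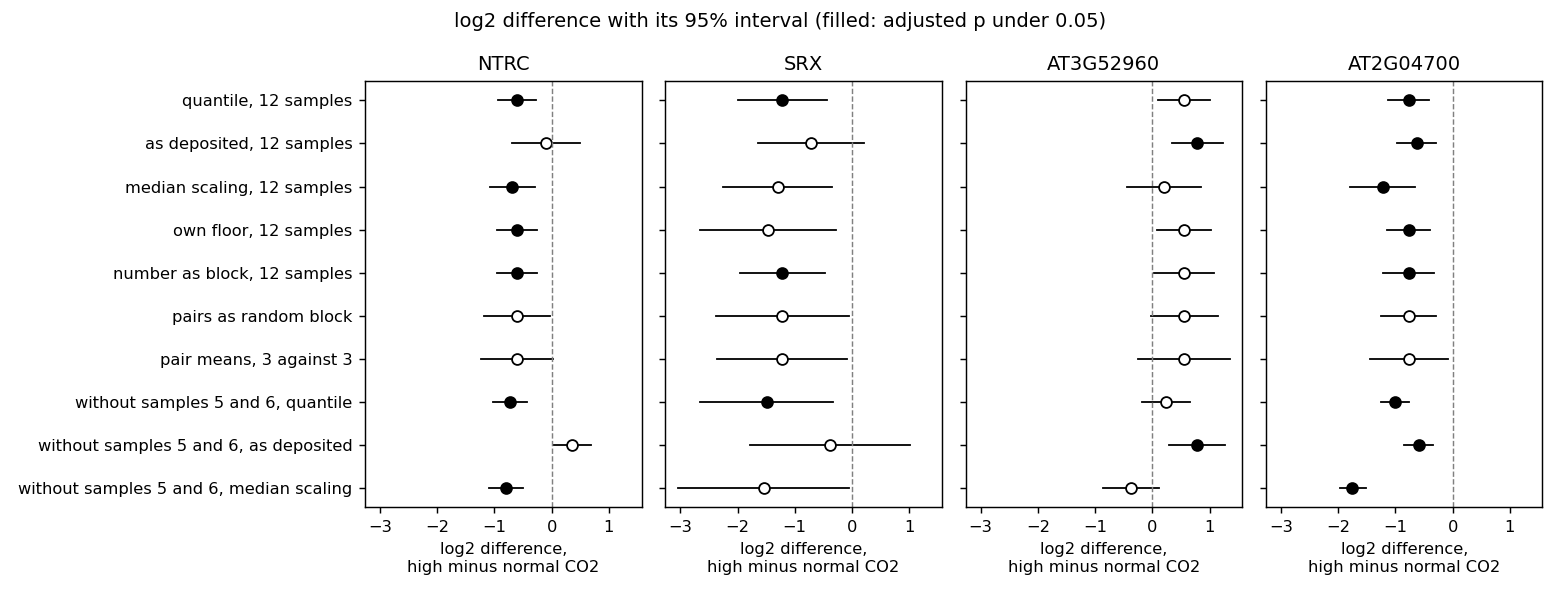
The log2 difference, high minus normal CO2, of NTRC, SRX, AT3G52960 and AT2G04700 with its 95% interval from limma, for 10 ways of scaling or choosing samples, with filled points where the adjusted p is under 0.05. The differences of AT2G04700 (-0.59 to -1.75) and SRX (-0.389 to -1.54) lie below 0 in all 10, whereas NTRC and AT3G52960 change sign in 1 setting each. The SRX interval includes 0 as deposited, with and without samples 5 and 6.

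Of 15 listed enzymes regulated by thioredoxin or NTRC, 4 were measured, 0 rose and 1 fell, beside 5.52% and 6.96% of all tested probes. The 1 that fell was SBPASE, a thioredoxin-activated phosphatase of carbon fixation, with a log2 difference of -0.78 (SE 0.20, limma adjusted p = 0.025). CHLM, the magnesium-protoporphyrin methyltransferase of chlorophyll synthesis and a known partner of NTRC, was at 0.449 ± 0.0874 at normal and 0.44 ± 0.201 at high CO2 (SD, n = 6 each, adjusted p = 0.793). PRK, phosphoribulokinase, differed by -0.45 (adjusted p = 0.43). AT5G58330, entered as the NADP-malate dehydrogenase of the plastid, differed by 0.20 (adjusted p = 0.734). The median of the 4 differences was -0.29. SBPASE did not pass as deposited (-0.53, adjusted p = 0.104), without high-CO2 sample 4 (-0.68, adjusted p = 0.0514), with pairs as a random block (adjusted p = 0.268) or on pair means (adjusted p = 0.407). Without samples 5 and 6 of each group, where 37.9% of all tested probes passed, PRK passed (-1.18, limma adjusted p = 0.00233). SBPASE also passed there (-1.03, limma adjusted p = 0.00656). After median scaling of those samples, where 45.7% passed, all 4 passed as lower, CHLM included (-0.78, limma adjusted p = 0.0288).

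Among single-gene probes with no sample at the floor, the profile most like that of NTRC over the 12 normalized log2 values was that of AT2G04700 itself (Pearson r = 0.85 of 446 probes compared). SECE1, a subunit of the thylakoid Sec translocase, and SBPASE followed with r of 0.844 and 0.84. These likenesses rest mostly on the step between groups. Once group means were removed, r with NTRC was 0.297, 0.315 and 0.448, and on deposited values it was 0.258, 0.406 and 0.473.

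SRX was most like SECE1 (r = 0.916), AT1G50770 (0.896) and AT2G21530 (0.894). Here the likeness held within the groups as well, with r of 0.862, 0.878 and 0.772 after removing group means. These probes were picked for high r on the same normalized values. On deposited values their r with SRX was 0.698, 0.7 and 0.628. Peroxiredoxin IIE was most like AT1G49850 (r = 0.896), CRR41 (0.866) and AT5G40030 (0.862), with r of 0.879, 0.862 and 0.807 within groups. None of these last 3 passed the limma test, with log2 differences of 0.47, 0.35 and 0.87 (adjusted p = 0.249, 0.334 and 0.173). All points share the 12 samples, their pairs and their scaling, so these coefficients are descriptions.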

How the data were processed

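The authors' deposited intensities were taken to be linear from their values alone. Array type, scanner, background correction and normalization: not given in the sources used here. The table's 12 columns were all used. Sample medians spanned 0.648 to 1.58 times their average, so quantile normalization was applied with limma 3.58.1 under R 4.3.3, keeping deposited zeros at 0. Random blocks used statmod 1.5.0. A floor of 0.0398, taken as the largest 1st percentile of any sample's positive normalized values, replaced smaller values before log2. Linear means are from before this step.

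Each of 3349 probes was fitted with lmFit and eBayes on group alone, 90 probes lying wholly at the floor being left out, and p-values were Benjamini-Hochberg adjusted over all fitted probes (threshold 0.05). For arrays, sample number limits precision. Of the probes, 692 had 1 gene in the platform annotation, 870 several and 1877 none given. RefSeq TAIR10.1 gave a locus for 690 of the 692 and was used for names only.

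Genes, lists and alternatives were chosen with earlier results of these data known. Genes named are the 3 chosen ones, list entries with a tested single-gene probe, and the 3 probes most correlated with each chosen gene. Lists of leaf, root and senescence markers had 0 measured entries, so the organ could not be checked. Alternatives covered scaling, floor or offset, dim-probe filter, variance model, pairs, replicate number and samples left out.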

Additional observations from a re-analysis of the deposited data

How the results depend on the processing

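The fits without samples 5 and 6 of both groups on deposited or median-scaled values, and the AT2G04700 ratio, were added after seeing the data. For each change given here the cause was not tested. NTRC (-0.609) lost its call at -0.0987 as deposited, at the same -0.609 on pair means and with pairs as a random block (adjusted p = 0.315), and at -0.72 on pair means without samples 5 and 6. It turned to 0.356 without samples 5 and 6 as deposited. SRX (-1.22) lost its call at -0.716 as deposited, -1.3 after median scaling and -1.47 with a floor set per sample (adjusted p = 0.101). The same happened at -1.22 on pair means and with the random block, at -1.49 on pair means without samples 5 and 6, and without those samples at -0.389 as deposited and -1.54 after median scaling. AT3G52960 (0.555) passed at 0.788 as deposited and 0.784 as deposited without samples 5 and 6, and turned to -0.371 there after median scaling. The 418 probes passing became 0 on both sets of pair means (408 and 1059 at an unadjusted p under 0.05) and with the random block (511). They became 1270 without samples 5 and 6, and then 2026 as deposited and 1549 after median scaling. The split of 185 higher and 233 lower was 326 and 65 as deposited and 85 and 246 after median scaling. The log2 difference of the ratio of AT3G52960 to NTRC (1.16) went as low as 0.428, without samples 5 and 6 as deposited. Over the alternatives the other ratio differences ran from 1.17 to 2.02 (AT3G52960 to SRX), 0.304 to 0.857 (NTRC to SRX) and 1.16 to 1.42 (AT3G52960 to AT2G04700). As deposited the groups of the ratio of AT3G52960 to SRX overlapped, with and without samples 5 and 6.

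Leaving out 1 sample at a time gave -0.675 to -0.554 for NTRC, -1.41 to -0.933 for SRX and 0.448 to 0.672 for AT3G52960, with calls as in the full fit except SRX, which lost its call in 9 of 12. The number of probes passing ran from 230, without high-CO2 sample 3, to 580, without high-CO2 sample 5. The ratio differences ran from 1.09 to 1.25 (to NTRC), 1.54 to 1.97 (to SRX) and 0.296 to 0.774 (NTRC to SRX). CHLM turned to 0.323 as deposited, 0.371 without samples 5 and 6 as deposited, and 0.0301 without high-CO2 sample 1 (range with 1 sample left out -0.309 to 0.0301). It passed at -0.784 without samples 5 and 6 after median scaling (limma adjusted p = 0.0288). AT5G58330 turned to -0.372 after median scaling, -0.188 without samples 5 and 6 (also on pair means), -1.11 there after median scaling, which passed, and -0.0617 without normal-CO2 sample 5 (range -0.0617 to 0.348).

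Same-numbered samples of the 2 groups shared only a number (residual correlations from -0.0784 to 0.158, highest with the own number for 2 of 6). With replicate number as a block 460 probes passed, and the 3 genes kept their calls (NTRC -0.609, adjusted p = 0.0387).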
